A study of Mus musculus with 9 samples.

Results

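Genes of glycolysis, of lactate and pyruvate handling and of the response to low oxygen were followed in MyC-CaP cells treated with asporin (ASPN). They were taken from the gene count table by symbol, from a list of 35 symbols. The table held 34 of the 35 on 35 rows among its 15384 genes; Egln3 was not among its rows, and Aldoa stood on 2 rows. The line MyC-CaP comes from a mouse prostate tumour and is labelled as epithelial-like, and ASPN is a small secreted proteoglycan made by stromal cells. Cells were held in medium without serum and calcium and then given recombinant mouse ASPN at 100 ng/mL, and RNA was taken at 0, 12 and 24 hours, with 3 libraries per time labelled as biological replicates. The labels give the ASPN treatment to the 0-hour libraries as well. No library of buffer-treated cells at 12 or 24 hours entered, so ASPN and the hours in the starvation medium cannot be told apart, and every library is of 1 cell line grown in wells, which limits what the replicates stand for.

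Glycolysis splits glucose into pyruvate. Glucose enters through transporters, is trapped by hexokinase, passes the committed step at phosphofructokinase, and is split by aldolase into the 3-carbon sugars that run down to pyruvate kinase, where ATP is made. Lactate dehydrogenase turns pyruvate into lactate, which leaves through monocarboxylate transporters, while the pyruvate dehydrogenase complex sends pyruvate to the mitochondrion and is shut by its kinases. When oxygen is low, prolyl hydroxylases no longer mark HIF-1α for destruction, and HIF-1 raises many glycolytic genes by binding a short core sequence near their starts. Prostate cells are known for a citrate-secreting metabolism, and many tumours are known for using glycolysis even with oxygen present.

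Shown are the upstream bases of the called members that have a RefSeq promoter entry. Called here means an edgeR adjusted p of at most 0.05 with a change of at least 1.5-fold. The bases of Ldha, whose window held the most copies of the core letters, are added. A single window is shown per gene, and Aldoa, Pdk2 and Ldha have others. Sequences are 5′ to 3′ on the gene's strand, from RefSeq on GRCm38.p6, end at or before the base ahead of the start and leave out bases annotated as untranslated. Capitals mark ACGTG and GCGTG on either strand, the core letters of HIF binding. Leaving out untranslated bases cuts an ACGTG of Slc2a1 that lies 36 bases before the start. An ACGTG of Gapdh, 42 bases after the start, lies beyond the bases shown.
Slc2a1, chr4:119108495-119108710, plus strand: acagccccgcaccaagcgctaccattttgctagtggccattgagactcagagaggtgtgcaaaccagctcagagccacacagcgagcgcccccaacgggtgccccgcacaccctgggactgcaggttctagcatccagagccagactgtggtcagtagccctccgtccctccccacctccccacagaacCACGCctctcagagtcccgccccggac
Aldoa, chr7:126799255-126799504, minus strand: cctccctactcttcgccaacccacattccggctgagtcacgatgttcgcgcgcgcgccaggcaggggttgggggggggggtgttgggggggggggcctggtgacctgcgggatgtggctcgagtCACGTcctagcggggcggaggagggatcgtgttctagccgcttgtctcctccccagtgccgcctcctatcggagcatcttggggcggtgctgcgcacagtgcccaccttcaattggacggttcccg
Gapdh, chr6:125165774-125166023, minus strand: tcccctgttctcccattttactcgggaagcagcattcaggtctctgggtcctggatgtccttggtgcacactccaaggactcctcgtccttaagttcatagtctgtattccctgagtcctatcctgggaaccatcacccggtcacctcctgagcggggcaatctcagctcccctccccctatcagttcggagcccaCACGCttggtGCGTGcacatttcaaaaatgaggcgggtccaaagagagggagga
Pgk1, chrX:106186850-106187099, plus strand: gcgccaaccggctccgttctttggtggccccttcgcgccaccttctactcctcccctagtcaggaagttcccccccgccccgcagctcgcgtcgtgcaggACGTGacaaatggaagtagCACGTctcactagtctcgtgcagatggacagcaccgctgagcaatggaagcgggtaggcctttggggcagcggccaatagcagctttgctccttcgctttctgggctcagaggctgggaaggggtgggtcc
Pdk2, chr11:95041372-95041621, minus strand: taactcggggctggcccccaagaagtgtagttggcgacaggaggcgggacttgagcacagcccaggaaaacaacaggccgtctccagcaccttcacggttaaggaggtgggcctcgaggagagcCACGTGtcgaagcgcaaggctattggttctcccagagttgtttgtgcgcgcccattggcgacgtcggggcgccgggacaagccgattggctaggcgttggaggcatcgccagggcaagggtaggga
Ldha, chr7:46845554-46845803, plus strand: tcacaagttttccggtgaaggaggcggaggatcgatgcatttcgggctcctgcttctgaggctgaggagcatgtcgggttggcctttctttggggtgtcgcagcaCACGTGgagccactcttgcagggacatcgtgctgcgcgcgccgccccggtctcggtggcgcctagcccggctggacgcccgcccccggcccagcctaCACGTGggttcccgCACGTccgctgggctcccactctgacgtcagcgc

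Over the windows of 250 bases before to 50 bases after each start, 6447 of 32851 promoters (19.6%) held ACGTG and 10639 (32.4%) held GCGTG on either strand, and 14380 (43.8%) held at least 1 of them. The members had 47 such windows for 32 genes, with no entry for Slc2a3 and Epas1. Of these, 25 (53.2%) held ACGTG, 26 (55.3%) held GCGTG and 37 (78.7%) held either. A palindrome CACGTG, as in Pdk2 and in Ldha, holds ACGTG on both strands and counts once for each. Several windows of a gene overlap, the letters of a short word depend on base composition, and a match is not a bound site. Pdk2, which was lower at 24 hours, had 2 windows, and that shown above held ACGTG while the other held neither word. Likewise a window of Aldoa that is not shown (chr7:126800448-126800697) held neither word, and the Ldha window not shown held GCGTG without ACGTG. Among windows of members with an adjusted p of at most 0.05, 16 of 21 for the higher ones and 7 of 9 for the lower ones held either word.

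Library totals ran from 41881191 to 52993821 counts. The members took 3.55% to 3.76% of them at 0 hours, 3.55% to 3.69% at 12 hours and 4.21% to 4.33% at 24 hours, before any scaling. The scaling factor (TMM, which sets the bulk of genes to no change) was 1.04 to 1.07 at 0 hours, 1.04 to 1.05 at 12 hours and 0.899 to 0.914 at 24 hours. The scaled value of a gene at 24 hours therefore stood above its plain share of the library. Levels below are CPM, counts of a gene scaled to a fixed library size after TMM, and CPM per kilobase of exon where genes are compared. Of the epithelial markers, Krt19, Hoxb13, Krt8 and Cldn4 were detected above 3 counts in every library, while Epcam, Cdh1 and Krt18 were at or near 0, at most 0.489 CPM, against the label of an epithelial-like line. Krt19 ran from 79.5 to 105 CPM at 0 hours and from 128 to 145 CPM at 24 hours, a change of 0.64 ± 0.08 (edgeR adjusted p = 1.32e-05), and Hoxb13 changed by 0.43 ± 0.06 (adjusted p = 1.17e-05). Fibroblast markers summed to at most 14.1 CPM, almost all Pdgfra, and immune and endothelial markers to at most 0.794 and 0.754 CPM. At 24 against 0 hours Pdgfra was lower (-0.51 ± 0.09, edgeR adjusted p = 0.000128). Dcn, at no more than 0.601 CPM in those libraries, was higher (1.20 ± 0.49, adjusted p = 0.0437). The part of these changes in the results was not tested. In bulk samples, fewer cells of a type and less RNA per cell cannot be told apart.

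Most of the members were expressed, and the steps from aldolase to pyruvate kinase stood among the most abundant transcripts. By mean CPM per kilobase over the 9 libraries, Pgk1 ranked 7th of all genes, Pkm 19th, Gapdh 29th, Aldoa 32nd, Ldha 48th, Tpi1 75th and Eno1 92nd. At 0 hours Pgk1 stood at 2211 CPM per kilobase, Pkm at 1548, Gapdh at 1073, Aldoa at 1025 and Ldha at 983. Gapdh, Aldoa and Ldha lay close together at 0 hours, and at 24 hours Gapdh (1720) and Aldoa (1679) stood above Ldha (1082). At the other end, Slc2a3 (0 to 0.249 CPM), Eno2 (0 to 0.0733 CPM) and Ldhb (0.0219 to 0.207 CPM), the neuronal-type glucose transporter, the neuronal enolase and the heart-type lactate dehydrogenase, were too low to test, which left 32 rows (31 genes) tested in each comparison. Epas1, the HIF-2α gene, and Slc16a3, the lactate exporter MCT4, passed the filter at under 1 CPM.

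**Figure D1:**
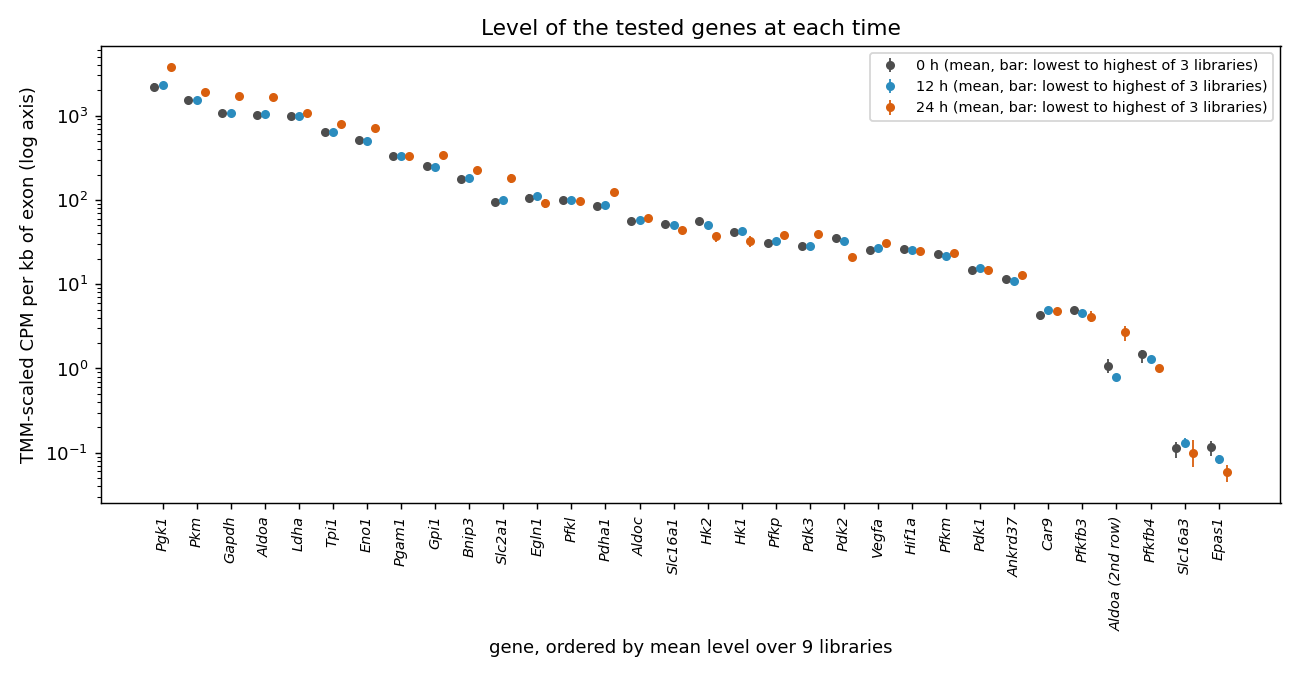
Level of each of the 32 tested rows in CPM per kilobase of exon on a log axis, genes ordered by mean level, with points for the mean at 0, 12 and 24 hours and bars from the lowest to the highest of 3 libraries. Pgk1 stood at 2211 CPM per kilobase at 0 hours and 3741 at 24 hours, and Epas1 at 0.117 and 0.0591.

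At 12 hours no member was called, where 1.60% of the 11410 tested genes were. The median change of the 32 rows was 0.00 on the log2 scale, as was that of all tested genes. Hk2 was the 1 member with an adjusted p of at most 0.05, lower, where 3.47% of all tested genes were lower by that rule. In no member did the 3 libraries at 12 hours all lie above the 3 at 0 hours, against 13.4% of tested genes, and in 6 (Hk2, Pdk2, Pfkfb3, Pfkm, Slc16a1 and the second Aldoa row) they all lay below, against 13.6%. The 95% intervals of the abundant enzymes were narrow: that of Gapdh ran from -0.08 to 0.08 and that of Ldha from -0.08 to 0.08 on the log2 scale, so a change of 1.5-fold lay outside them.

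At 24 hours 5 rows were called higher and 2 lower. The 5 were Slc2a1, Aldoa, Gapdh, Pgk1 and the second Aldoa row, against 12.0% of 11444 tested genes called higher, and the 2 were Pdk2 and Epas1, against 16.8% called lower. By adjusted p alone, 15 members were higher, where 34.4% of tested genes were, and 7 lower, where 36.5% were. In 15 members all libraries at 24 hours lay above those at 0 hours, against 35.6% of tested genes, and in 6 all lay below, against 38.3%. The median change was 0.15 on the log2 scale beside -0.02 for all tested genes. Scaling by total counts alone put the median of all tested genes at -0.24 and of the members at -0.07, and left 2 members called higher and 4 lower, beside 698 higher and 3008 lower among all genes in place of 1374 and 1924. Relative to all genes the members then stood as under TMM. Of the 32 rows, the count of higher calls lay near the share among all tested genes and the count of lower calls below it. With length and GC correction 8 of the 32 rows were called higher, against 12.1% of 11440 genes, and 1 lower, against 13.9%.

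**Figure D2:**
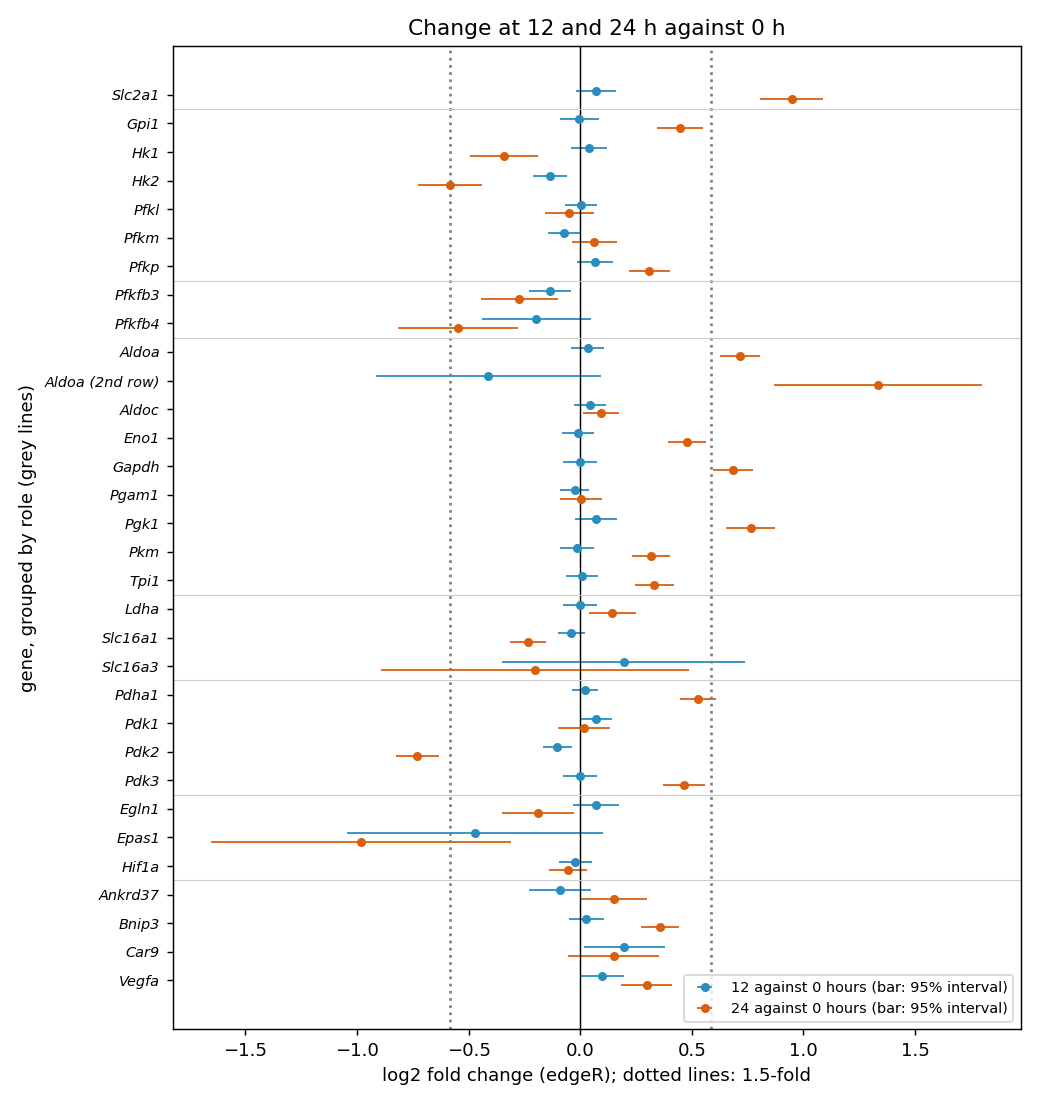
Log2 fold change of each tested row at 12 and at 24 hours against 0 hours with its 95% interval from edgeR, rows grouped by role between grey lines, dotted lines at 1.5-fold. The 12-hour points lie between -0.47 (Epas1) and 0.20 (Car9), inside the 1.5-fold lines, and the 24-hour points spread from -0.98 (Epas1) to 1.33 (second Aldoa row).

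The glucose transporter Slc2a1 (GLUT1, chr4:119108711-119137983, plus strand), the main basal transporter of most cells, rose most among the well-measured members. Its level was 340, 326 and 324 CPM at 0 hours, 331, 328 and 378 CPM at 12 hours and 551, 715 and 636 CPM at 24 hours. Every library at 24 hours stood above every earlier one, and the 24-hour libraries spread more widely than the others. The change at 24 hours was 0.95 ± 0.07 (log2, SE, n = 3 per time), a 1.93-fold rise (edgeR adjusted p = 7.3e-08), higher than that of 95.7% of tested genes. It was called under every scaling tried, from 0.73 with total counts to 1.01 with length and GC correction.

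Both hexokinases, which phosphorylate glucose on entry, were lower at 24 hours. Hk2 (chr6:82725025-82774454), the hexokinase often raised in tumours, stood at 349, 323 and 326 CPM at 0 hours, at 301, 292 and 314 CPM at 12 hours and at 190, 244 and 230 CPM at 24 hours, so it went down at each time with no overlap. Its change was -0.13 ± 0.04 at 12 hours (edgeR adjusted p = 0.031) and -0.58 ± 0.07 at 24 hours (adjusted p = 8.37e-06). The adjusted p at 12 hours went to 0.291 with all 9 libraries in a single fit, 0.0523 without 0-hour replicate 1, 0.114 without 12-hour replicate 1 and 0.2 without 12-hour replicate 2. At 24 hours it lay just short of 1.5-fold and passed it under 9 of the alternatives, while length and GC correction put it at -0.35. Hk1, the housekeeping form, stood at 343 to 367 CPM at 0 hours and 238 to 317 CPM at 24 hours (-0.34 ± 0.08, adjusted p = 0.00137), but correction for length and GC content put it at 0.08, in the other direction. Within each library the share of a form among the hexokinases, per kilobase, does not depend on the scaling between libraries. Hk1 took 42.3%, 42.6% and 42.6% at 0 hours, 44.2%, 46.1% and 46.0% at 12 hours and 46.7%, 47.5% and 45.4% at 24 hours, with Hk2 nearly all of the rest, so the shift toward Hk1 was without overlap already at 12 hours.

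The next steps moved apart. Gpi1, which turns glucose 6-phosphate into fructose 6-phosphate, was at 1531 to 1744 CPM at 0 hours and 2140 to 2266 CPM at 24 hours (0.45 ± 0.05, edgeR adjusted p = 4.42e-06). Among the phosphofructokinase subunits, Pfkl, the liver form, showed no change past the test (-0.05 ± 0.06, adjusted p = 0.454), and with length and GC correction it was 0.32. Pfkm, the muscle form, was at 0.06 ± 0.05 (adjusted p = 0.28), and Pfkp, the platelet form, rose by 0.31 ± 0.05 (adjusted p = 5.01e-05), from 404 to 424 CPM up to 490 to 543 CPM. With total counts the change of Pfkp was 0.09 (adjusted p = 0.0915), so it no longer passed. The share of Pfkp among the 3 forms went from 19.8% to 20.1% at 0 hours to 23.3% to 24.3% at 24 hours, and that of Pfkl from 64.3% to 66.0% down to 58.9% to 62.5%, without overlap in either. In Pfkp, 748 exon bases overlap Pitrm1 on the other strand, and whether the counting used strand is not given in the sources used here, so part of its count may come from that gene. Exon bases of Gpi1 (741) and Bnip3 (504) likewise overlap a gene on the other strand.

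Pfkfb3 and Pfkfb4, of the PFKFB enzymes that set the level of the activator of phosphofructokinase, were lower by the test. Pfkfb4 was at 5.69, 8.13 and 8.12 CPM at 0 hours and at 4.94, 5.09 and 4.92 CPM at 24 hours (-0.55 ± 0.14, edgeR adjusted p = 0.00283), all below. Pfkfb3 was at 36.4 to 38.6 CPM and 27.2 to 36.6 CPM, so the groups overlapped (-0.27 ± 0.09, adjusted p = 0.0134), and with length and GC correction its change was 0.01 (adjusted p = 0.873). Without 24-hour replicate 3 the adjusted p was 0.0651.

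**Figure D3:**
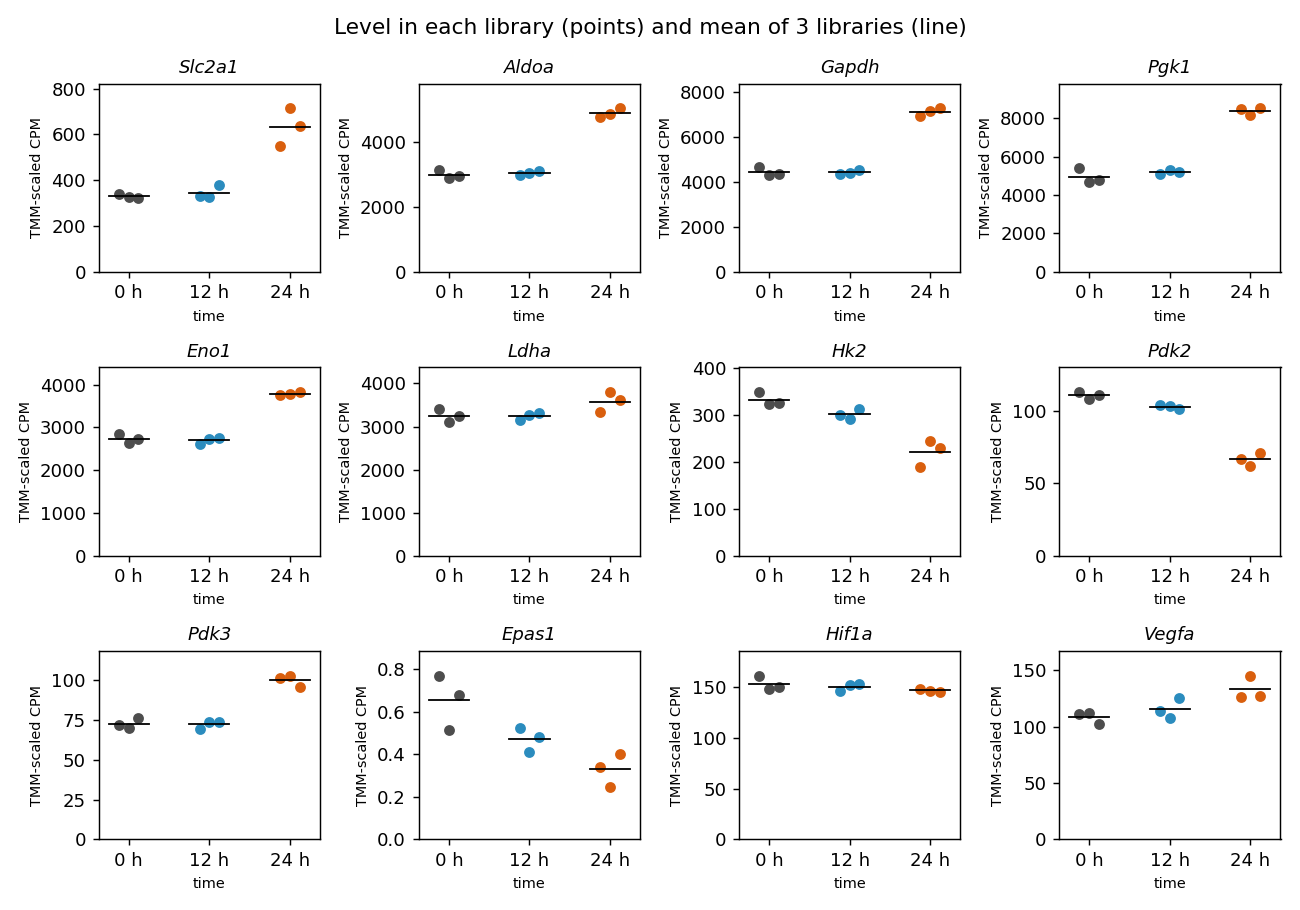
TMM-scaled CPM (vertical axis from 0) of 12 members in each library at 0, 12 and 24 hours (points, 3 per time) with the mean as a line. Slc2a1, Aldoa, Gapdh, Pgk1, Eno1 and Pdk3 at 24 hours stood above all earlier libraries, Hk2 and Pdk2 below them, and Hif1a overlapped.

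The lower part of glycolysis, from aldolase to pyruvate kinase, held 4 of the 5 higher calls, and all 9 tested rows had a positive estimate under TMM, with 7 at an adjusted p of at most 0.05. Of all tested genes 12.0% were called higher and 34.4% were higher by adjusted p alone. Total counts turned Pgam1 (-0.22) and Aldoc (-0.13) negative, and length and GC correction turned Pgam1 negative (-0.13). Pgk1 (chrX:106187100-106203699), phosphoglycerate kinase, the first step that makes ATP, stood at 5430, 4675 and 4780 CPM at 0 hours, at 5089, 5302 and 5205 CPM at 12 hours and at 8494, 8158 and 8533 CPM at 24 hours. Its change at 24 hours was 0.76 ± 0.06 (1.70-fold, edgeR adjusted p = 4.93e-08). Gapdh (chr6:125161715-125166467), the step before, was at 4655, 4303 and 4348 CPM, then 4346, 4391 and 4531 CPM, and then 6914, 7142 and 7275 CPM at 24 hours (0.69 ± 0.05, adjusted p = 1.97e-08).

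Aldoa (chr7:126795234-126800751), the main aldolase, was at 3128, 2887 and 2934 CPM at 0 hours, 2987, 3045 and 3099 CPM at 12 hours and 4778, 4850 and 5034 CPM at 24 hours (0.72 ± 0.05, edgeR adjusted p = 1.26e-08). In these 3 genes all 24-hour libraries stood above all earlier ones and the 0-hour and 12-hour libraries overlapped. With total counts, Pgk1, Gapdh and Aldoa changed by 0.54, 0.46 and 0.50, short of 1.5-fold. Gapdh has 77 near-identical copies in the annotation (at least 95% identity over 300 bases), 2 of them in the table, and Pgk1 has 4. Their counts are therefore less certain than those of Aldoa, which has 0. Other members have copies as well, among them Eno1 (3, with 1 in the table), Bnip3 (4) and Ldha (3).

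The second Aldoa row (chr7:126800790-126809108) lies just upstream on the same strand and held 38 to 48 counts per library at 0 hours, 27 to 31 at 12 hours and 80 to 107 at 24 hours. It was 2.52-fold higher at 24 hours (1.33 ± 0.24, edgeR adjusted p = 0.000216), at 2.57, 2.22 and 1.69 CPM against 4778 CPM or more for the main row. Aldoc, the brain-type aldolase, changed by 0.09 ± 0.04 (adjusted p = 0.0619), and its share of the aldolases fell from 5.14% to 5.40% at 0 hours to 3.37% to 3.53% at 24 hours.

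The other steps below aldolase changed by less than 1.5-fold under TMM. Eno1, enolase, rose by 0.48 ± 0.04 (edgeR adjusted p = 3.31e-07), from 2633 to 2839 CPM at 0 hours to 3758 to 3829 CPM at 24 hours. Tpi1, triose phosphate isomerase, rose by 0.33 ± 0.04 (adjusted p = 1.4e-05), and Pkm, pyruvate kinase, by 0.32 ± 0.04 (adjusted p = 2.08e-05). With length and GC correction Eno1 (0.72), Gpi1 (0.76) and Pfkp (0.59) also passed 1.5-fold, and Eno1 then lay above Pgk1 (0.61). Pgam1, phosphoglycerate mutase, stayed at 0.00 with a 95% interval from -0.09 to 0.10. It did not pass the test, at 652 to 682 CPM at 0 hours and 617 to 693 CPM at 24 hours.

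The tested lactate genes, Ldha, Slc16a1 and Slc16a3, had estimates of less than 1.5-fold. For Slc16a3 the 95% interval, from -0.89 to 0.49, also held larger falls. Ldha, the subunit that favours lactate formation, was at 3406, 3112 and 3240 CPM at 0 hours and at 3327, 3802 and 3613 CPM at 24 hours; the groups overlapped. Its change was 0.14 ± 0.05 (edgeR adjusted p = 0.0286), and with total counts it was -0.08. Leaving out 0-hour replicate 2 or 3 or 24-hour replicate 2 or 3 put its adjusted p at 0.0827 to 0.131. Ldha made up at least 99.99% of the 2 lactate dehydrogenase subunits per kilobase in each library but 1, with Ldhb at 1 to 10 counts per library. Slc16a1, the transporter MCT1, was lower at 24 hours (-0.23 ± 0.04, adjusted p = 0.000193), at 229 to 238 CPM before and 188 to 201 CPM after. Slc16a3 (MCT4) stood at 0.665, 0.708 and 0.459 CPM at 0 hours and 0.464, 0.746 and 0.359 CPM at 24 hours (-0.20 ± 0.35, adjusted p = 0.622).

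The pyruvate dehydrogenase kinases, which shut the use of pyruvate in the mitochondrion, moved in opposite directions. Pdk2 (chr11:95026258-95041354) was at 113, 108 and 111 CPM at 0 hours, 104, 103 and 101 CPM at 12 hours and 66.7, 62.1 and 70.4 CPM at 24 hours. The 24-hour libraries were below all others, and the change was -0.73 ± 0.05 (0.603-fold, edgeR adjusted p = 2.47e-08), and Pdk2 was called lower at 24 against 0 hours under every alternative run. Pdk3 rose by 0.47 ± 0.05 (adjusted p = 1.23e-06), from 69.9 to 76.2 CPM up to 95.7 to 103 CPM, short of 1.5-fold. Pdk1, the kinase most often named as a HIF-1 target, was at 0.02 ± 0.06 (adjusted p = 0.81). Pdha1, the catalytic subunit that the kinases act on, rose by 0.53 ± 0.04 (adjusted p = 7.88e-08), with 603 exon bases shared with Map3k15 on the other strand. The remaining kinase, Pdk4, is no member and was chosen after its values were seen; it stood at 118 to 122 CPM at 0 hours and 156 to 161 CPM at 24 hours (0.41, adjusted p = 5.91e-07). Within each library, per kilobase, Pdk2 took 31.8%, 30.6% and 31.0% of the 4 kinases at 0 hours and 17.2%, 16.6% and 18.6% at 24 hours. Pdk3 went from between 24.4% and 26.4% to 32.4%, 34.0% and 31.2%, and Pdk4 from 30.1%, 31.2% and 29.9% to 36.9%, 37.7% and 38.2%, so each of the 3 shares moved without overlap.

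**Figure D4:**
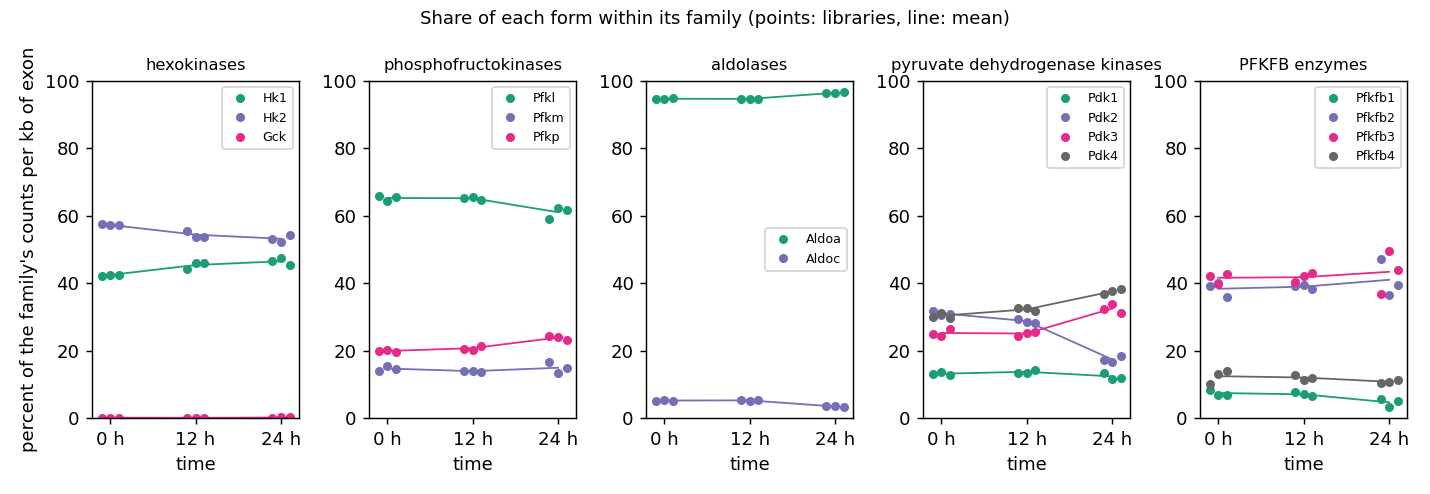
Share of each form in its family (percent of the family's counts per kilobase of exon) in every library at 0, 12 and 24 hours, points for libraries and lines for means, in 5 families; forms with a mean share under 0.1% at 0 hours are counted but not drawn. Pdk2 goes from a mean of 31.1% to 17.5%, Pdk3 from 25.3% to 32.5% and Pdk4 from 30.4% to 37.6% between 0 and 24 hours, and Hk1 from 42.5% to 46.6%.

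None of the 3 tested HIF factors and hydroxylases passed the test as higher at 24 hours. Hif1a was at 161, 148 and 150 CPM at 0 hours and 148, 146 and 145 CPM at 24 hours (-0.06 ± 0.04, edgeR adjusted p = 0.262), and with length and GC correction it was -0.23 (adjusted p = 0.000395). The amount of HIF-1α is known to be set mainly by the stability of the protein. Epas1 was counted 37, 24 and 37 times at 0 hours and 14, 12 and 19 times at 24 hours (-0.98 ± 0.34, adjusted p = 0.0209), so its call rests on few counts. It was lost with DESeq2 (adjusted p = 0.0617), with length and GC correction (adjusted p = 0.0591), and without 0-hour replicate 1 (0.09), 0-hour replicate 3 (0.0681) or 24-hour replicate 2 (0.0795). Egln1, the prolyl hydroxylase PHD2, was at 354 to 417 CPM and 284 to 371 CPM (-0.19 ± 0.08, adjusted p = 0.0552). It passed 0.05 as lower with total counts (-0.41), without a filter, with all 9 libraries in a single fit and with limma-voom. It also passed without 0-hour replicate 3 or 24-hour replicate 2, but under no other alternative. At 24 against 12 hours Egln1 was lower (-0.24 ± 0.07, edgeR adjusted p = 0.00967), though not past 0.05 with DESeq2 (0.0643) or without 12-hour replicate 3 (0.0544).

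Of the other hypoxia genes, 2 of 4 were higher by adjusted p alone under TMM, where 34.4% of all tested genes were, and neither reached 1.5-fold. Bnip3, a mitophagy receptor, went from 384 to 423 CPM to 505 to 519 CPM (0.36 ± 0.04, edgeR adjusted p = 6.76e-06) and Vegfa, the angiogenic factor, from 102 to 112 CPM to 127 to 145 CPM (0.30 ± 0.06, adjusted p = 0.000419). With total counts the change of Vegfa was 0.08 (adjusted p = 0.26) and no longer passed. Car9, the carbonic anhydrase often taken as a marker of low oxygen, was at 8.7 to 10.8 CPM and 10.1 to 12.0 CPM (0.15 ± 0.10, adjusted p = 0.214), and Ankrd37 at 0.15 ± 0.08 (adjusted p = 0.0961). With total counts Car9 and Ankrd37 had negative estimates.

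**Figure D5:**
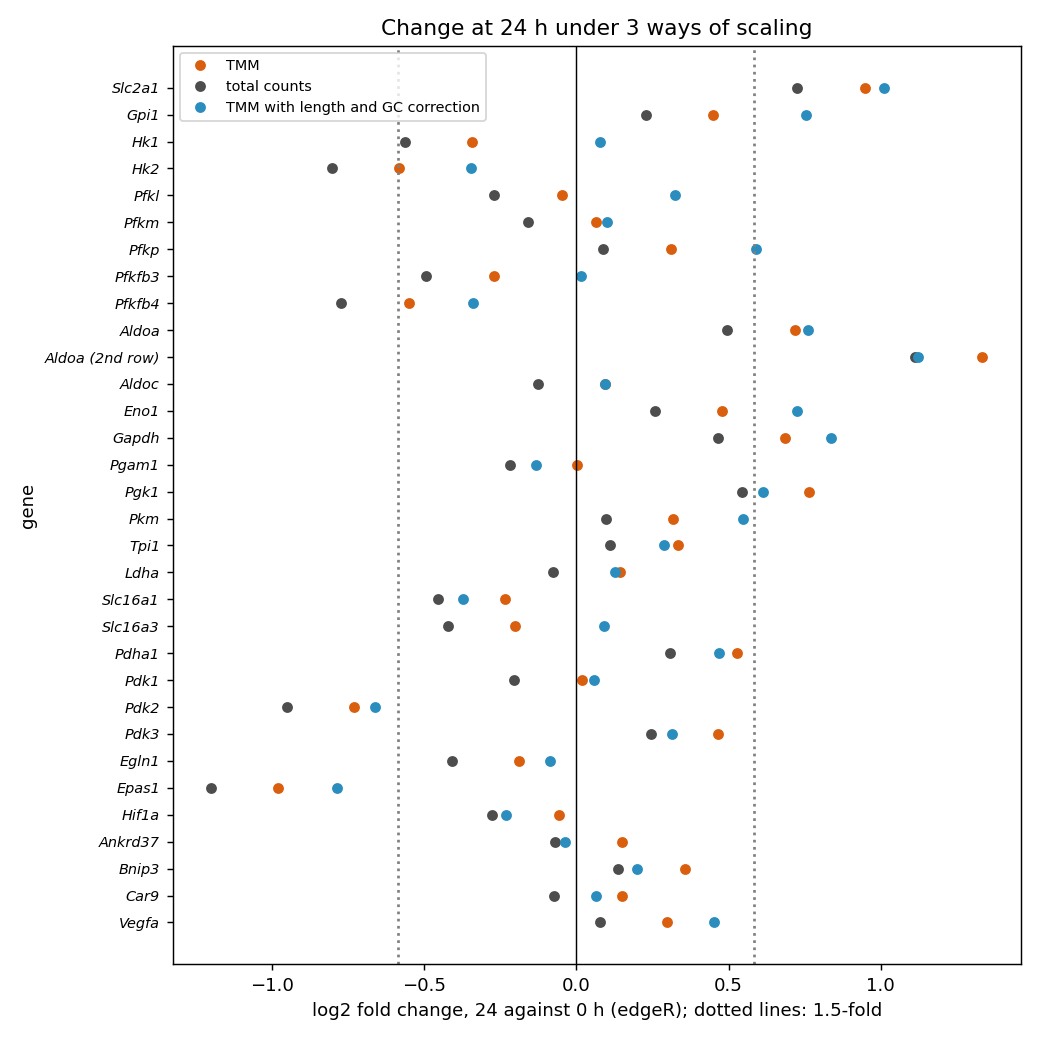
Log2 fold change at 24 against 0 hours of each tested row under TMM, total counts, and TMM with correction for exon length and GC content, dotted lines at 1.5-fold. Slc2a1 stays above 1.5-fold (0.73 to 1.01) and Pdk2 below it (-0.95 to -0.66), while Hk1 and Pfkl cross 0 with length and GC correction (0.08 and 0.32).

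The change between 12 and 24 hours was close to that from 0 hours, and both use the same 24-hour libraries. The same 5 rows were called higher, against 10.4% of 11394 tested genes, and Pdk2 was called lower, against 15.3%. By adjusted p alone 17 members were higher, where 35.7% of tested genes were, and 6 lower, where 35.6% were. The libraries did not overlap in 16 members that were higher, against 35.5%, and in 7 that were lower, against 38.5%. Slc2a1 changed by 0.90 ± 0.08 (edgeR adjusted p = 2.39e-07), Pgk1 by 0.71 ± 0.03, Gapdh by 0.71 ± 0.03 and Aldoa by 0.71 ± 0.03. Pdk2 changed by -0.61 ± 0.05 (adjusted p = 8.09e-08), and its call was lost with upper-quartile scaling (-0.58), with length and GC correction (-0.58) and without 24-hour replicate 2 (-0.56). Pgk1, Gapdh and Aldoa fell short of 1.5-fold with total counts, and Pgk1 also with length and GC correction (0.55). The second Aldoa row changed by 1.77 ± 0.24 (adjusted p = 1.6e-05). Replicate 1 at 24 hours was the lowest of its group in 19 of the 32 members and replicate 1 at 12 hours in 21, while replicate 3 at 12 hours was the highest of its group in 24 and replicate 1 at 0 hours in 20.

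Other genes of these pathways were counted in 5 further lists, whose counts at 24 hours are read against the same shares of all tested genes, 12.0% called higher and 16.8% lower. Among other glycolysis and pyruvate genes, 4 of 30 tested were called higher and 6 lower at 24 hours, near those shares, with a median of -0.10. Slc2a6, a glucose transporter-family member of lysosomes, rose most, from 4.30 to 4.72 CPM at 0 hours to 12.2 to 16.3 CPM at 12 hours and 27.3 to 37.9 CPM at 24 hours (1.59 and 2.81, edgeR adjusted p = 3.76e-08 and 3.84e-10). Mpc1, a part of the mitochondrial pyruvate carrier, rose by 0.88 ± 0.11, and Pgam2 (-1.06 ± 0.17) and Pfkfb1 (-1.01 ± 0.19) fell, both at under 6 CPM.

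Of 11 HIF pathway components, 0 were called higher and 5 lower at 24 hours, with a median of 0.01. Ep300, a co-activator of HIF, fell by 1.23 on the log2 scale (edgeR adjusted p = 2.21e-10) and Hif3a by 1.16 (adjusted p = 4.75e-08), while Egln2 (-0.60 ± 0.05) and Crebbp (-1.02 ± 0.05) were the highest 2 of those called. In the list of other hypoxia-induced genes 9 of 29 were called higher and 1 lower, with a median of 0.43. Adm, adrenomedullin, rose by 1.88 ± 0.18 (adjusted p = 5.05e-07), from 1.37 to 1.93 CPM up to 5.01 to 7.39 CPM. Narf, at the low end, fell by 0.70 on the log2 scale, and P4ha1, a collagen prolyl hydroxylase subunit, rose least of those called higher, by 0.59 ± 0.04.

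At 12 hours, when 1.60% of all tested genes were called in either direction, the same list held 2 calls, both higher: Edn1, endothelin-1, by 1.80 (adjusted p = 1.18e-14) and Angptl4 by 0.65 (adjusted p = 5.79e-09). Angptl4 was at 0.03 again at 24 hours, while Edn1 stood at 1.11. In the pentose phosphate pathway 1 of 7 genes was called, Rpia, lower by -0.83 ± 0.08, with a median of 0.25, and in the TCA cycle 3 of 16 were called higher, Cs, citrate synthase, by 0.83 ± 0.04 and Suclg2 by 0.67 ± 0.04, Sdhd by 0.60 ± 0.04, with a median of 0.19. All tested genes had a median of -0.02.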

How the data were processed

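RNA-Seq of 9 libraries of MyC-CaP was used. Per the paper's methods, the authors trimmed adapters with Cutadapt, aligned paired-end reads of TruSeq mRNA libraries to GRCm38.p6 with STAR, and deposited the raw counts per gene that featureCounts gave. No value of other samples was read. Groups were taken from the labels. Counts were analysed with edgeR 4.0.16 in R 4.3.3: TMM factors, filterByExpr, the quasi-likelihood test for each pair of times on its 6 libraries, two-sided, with Benjamini-Hochberg adjustment over all tested genes. Genes were called at an adjusted p of at most 0.05 and at least 1.5-fold. On simulated counts with a single dispersion of 0.01, the fit called 99% of 200 well-counted genes changed by 1 on the log2 scale. These lay among 11443 genes, for 24 against 0 hours. Changes nearer 1.5-fold and genes with few counts were not simulated as changed, so the 99% does not cover them. DESeq2 1.42.0, limma 3.58.1, scaling, filter, block and correction alternatives were also run.

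Exon lengths, positions, overlaps and copies came from GENCODE M21, in which all 35 rows had the same ID, start and end as in the count table; 15374 of 15384 genes had an exon length. Levels between genes are per kilobase. The members and lists were chosen with earlier results of these data known. Named genes were every member in the table, with values at 24 against 0 hours for each tested member, and from each further list the 2 highest and 2 lowest of those called at 24 or 12 hours; cell type markers come from marker lists. Some genes that these rules would name are not reported here. The labels call the libraries biological replicates and their growth protocol has cells of 1 line plated in triplicate wells, so p-values measure only the spread between these samples, which may be technical. Replicate numbers did not pair the libraries (correlations of deviations from -0.10 to 0.05).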

Additional observations from a re-analysis of the deposited data

Results flagged for a closer look

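The change from 0 hours differed between 12 and 24 hours in 6 of 32 rows, by the test of 24 against 12 hours with the 1.5-fold threshold, where 10.4% of all tested genes were called higher and 15.3% lower; by adjusted p alone 23 rows passed, where 35.7% of all tested genes were higher and 35.6% lower. The log2 difference was 0.90 in Slc2a1, 0.71 in Aldoa, 0.71 in Gapdh, 0.71 in Pgk1, 1.77 in the row Aldoa (ENSMUSG00000114515) and -0.61 in Pdk2. In these rows the edgeR adjusted p at 24 against 12 hours was at most 1.6e-05, and none was called at 12 against 0 hours. With total counts the differences of Aldoa, Gapdh and Pgk1 were 0.48, 0.48 and 0.49, short of 1.5-fold, and with length and GC correction that of Pgk1 was 0.55. The call of Pdk2 was lost with upper-quartile factors (-0.58), with length and GC correction (-0.58) and without 24-hour replicate 2 (-0.56).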

How the results depend on the processing

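At 12 hours no member was called under any alternative with a fold threshold, and by adjusted p alone there was 1, lower. At 24 against 0 hours, 5 members were called higher and 2 lower. With total counts these were 2 and 4 (all genes 6.10% and 26.3%). With length and GC correction they were 8 and 1 (12.1% and 13.9%), also with the replicate block added (11.9% and 13.8%). By adjusted p alone they were 15 and 7, 22 in all (34.4% and 36.5%). DESeq2 gave 6 and 1 of 35 rows (9.50% and 12.5%), and no filter 6 and 3 of 35 (9.40% and 13.5%). Counts of 5 and 3 came with limma-voom (12.0% and 17.0%) and with at least 10 counts in every library (11.8% and 16.6%). The same came without 0-hour replicate 2 (12.2% and 15.9%) or 24-hour replicate 3 (11.6% and 16.7%). At 24 against 12 hours the 5 higher and 1 lower became 2 and 2 with total counts (all genes 4.25% and 24.8%), 17 and 6 (23 in all) by adjusted p alone, and 0 lower with upper-quartile factors (all genes 14.5%) and with length and GC correction, without or with the replicate block (13.0% and 12.9%); leaving out a library gave 0 to 1 lower. With the replicate block alone 8 members were called at 24 against 0 hours (all genes 11.7% higher and 16.6% lower) and 6 at 24 against 12 hours (10.4% and 15.3%); numbers did not pair the libraries, so the block is no better design.

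Directions that turned at 24 against 0 hours were, with total counts, Pdk1 -0.20, Pgam1 -0.22, Aldoc -0.13, Car9 -0.072, Pfkm -0.16, Ankrd37 -0.072 and Ldha -0.077; with length and GC correction, Pgam1 -0.13, Pfkl 0.32, Slc16a3 0.089, Pfkfb3 0.015, Hk1 0.076 and Ankrd37 -0.037; with that correction and the replicate block, Pgam1 -0.13, Pfkl 0.32, Slc16a3 0.058, Pfkfb3 0.0054, Hk1 0.070 and Ankrd37 -0.041; and without a filter (Pgam1 -0.0034) or with at least 10 counts in every library (Pgam1 -0.0032). Leaving out a library gave Hif1a -0.073 to 0.0020, Pgam1 -0.031 to 0.050, Pdk1 -0.061 to 0.070, Pfkl -0.11 to 0.013 and Slc16a3 -0.56 to 0.018. At 24 against 12 hours, Pfkm was -0.065 and Ldha -0.058 with total counts, and Hk1 0.030 with length and GC correction, and 0.025 with the replicate block added. All other members for which alternatives were run, each tested row at 24 against 0 hours and 23 rows at 24 against 12 hours, kept their direction. The cause was not tested.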
